A study of Mus musculus with 11 samples.

Results

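Translation factors bring an mRNA, the ribosomal subunits and the initiator tRNA together (initiation) and then move the ribosome along the message (elongation). Initiation factors (eIFs) recognise the cap, unwind the leader and select the start codon, and elongation factors (eEFs) deliver aminoacyl-tRNAs and drive translocation. The kinase complex mTORC1 controls this machinery in adipocytes as in other cells: it phosphorylates the 4E-binding proteins so that the cap-binding protein eIF4E is released, and through S6 kinase it acts on eIF4B and on the kinase of eEF2. Messages of many elongation factors and of some eIF3 subunits begin with an oligopyrimidine tract, and their translation, more than their RNA level, depends on mTORC1. RNA levels were measured here, not protein, phosphorylation or translation.

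The genes described are the protein-coding mouse genes whose symbol starts with Eif1 to Eif6, Eef1 or Eef2, a rule on names that also takes in the 4E-binding proteins (Eif4ebp) and the eIF2 kinases (Eif2ak). There were 68 such genes among 52282 genes in the tables, of which 21810 are protein-coding. All 68 passed the expression filter, which kept 26960 genes. A further 9 genes matched the names but are annotated as pseudogenes or non-coding RNA and were left out.

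Bulk RNA came from the inguinal white fat, which lies under the skin, of C57BL6/J mice aged 16 weeks. All mice had eaten a high-fat diet for 8 weeks, so that no group was free of it. The knockout mice (KO) carried floxed Raptor (gene Rptor, the subunit that mTORC1 needs) and a Cre recombinase under the adiponectin promoter, which acts in adipocytes and leaves Raptor in the other cells of the depot. Their littermates carried floxed Raptor (WT). Rosiglitazone, an agonist of the nuclear receptor PPARG, was given at 30 mg per kg per day in the diet. KO mice gave 3 libraries under rosiglitazone and 2 without it, and WT mice gave 3 under rosiglitazone and 3 without it; mice without the drug are called on diet here. The comparisons ask how far mTORC1 loss in adipocytes, PPARG activation and the 2 together change the RNA of this tissue.

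The 6 WT libraries carry conflicting labels: title and treatment characteristic give opposite treatments. The characteristic was used, so every statement on a WT treatment holds under that label, while KO against WT averaged over treatments and rosiglitazone in KO are the same under both. Whether each library is its own animal is not stated, and the p-values cover the spread among these samples only, and that spread may be technical. Depth was 13035346 to 17167452 estimated reads in KO with rosiglitazone, 18910679 and 20163464 in KO on diet, 18437526 to 40925952 in WT with rosiglitazone and 16088059 to 27160069 in WT on diet. The targeted gene Rptor measured 56.5 to 91.7 CPM (each library scaled to a common total of reads by TMM) in the 5 KO libraries, against 73.9 to 126 CPM in the 6 WT libraries, over all cells of the tissue, and fell by 0.41 ± 0.11 in log2 units (SE; adjusted p = 0.0403). The adipocyte marker Adipoq, itself the gene of adiponectin, was at 57.7 to 200.4 CPM in KO libraries against 453 to 1864 CPM in WT libraries. Muscle marker genes held 4.41% of the reads of replicate 2 of KO with rosiglitazone and 1.87% of those of replicate 2 of WT on diet. They held 0.861% and 1.75% in replicates 2 and 3 of WT with rosiglitazone, and at most 0.132% elsewhere. In bulk tissue, fewer cells of a type and less RNA per cell cannot be told apart.

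The level of a factor, in TPM (which divides by transcript length and so allows genes to be compared), spanned more than 3 orders of magnitude. Eef1a1, which delivers aminoacyl-tRNA to the ribosome, was the most abundant of the 68, at a mean of 1688 TPM over the 11 libraries, and Eef2, the translocase, followed at 478 TPM. Next came the eIF4G-related scaffold Eif4g2 at 281 TPM, the RNA helicase Eif4a2 at 256 TPM and the start codon factor Eif1 at 179 TPM. The lowest were the lysine methyltransferase Eef1akmt3 at 0.789 TPM, the eIF5A paralog Eif5a2 at 2.40 TPM, the 4E-binding protein Eif4ebp3 at 3.40 TPM, Eef1e1 at 4.27 TPM and Eef1akmt4 at 4.34 TPM. Eef1e1, known as a component of the multi-tRNA synthetase complex, carries the elongation factor name without being a subunit of the exchange factor.

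Within complexes the levels were uneven. The 14 eIF3 genes, which form the scaffold on the small subunit, ranged from 65.7 TPM for Eif3l to 5.995 TPM for Eif3j1. The 5 genes of the eIF2B exchange factor lay closer together, between 11.9 TPM for Eif2b3 and 15.6 TPM for Eif2b1. Among cap-binding proteins Eif4e2 had 23.1 TPM and Eif4e1b, known mainly from oocytes, 4.86 TPM. Eef1a1 alone made up 33.6 to 40.7% of the summed TPM of the 68 genes in the 5 KO libraries, against 26.5 to 32.2% in the 6 WT libraries, so the ranges did not overlap.

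**Figure D1:**
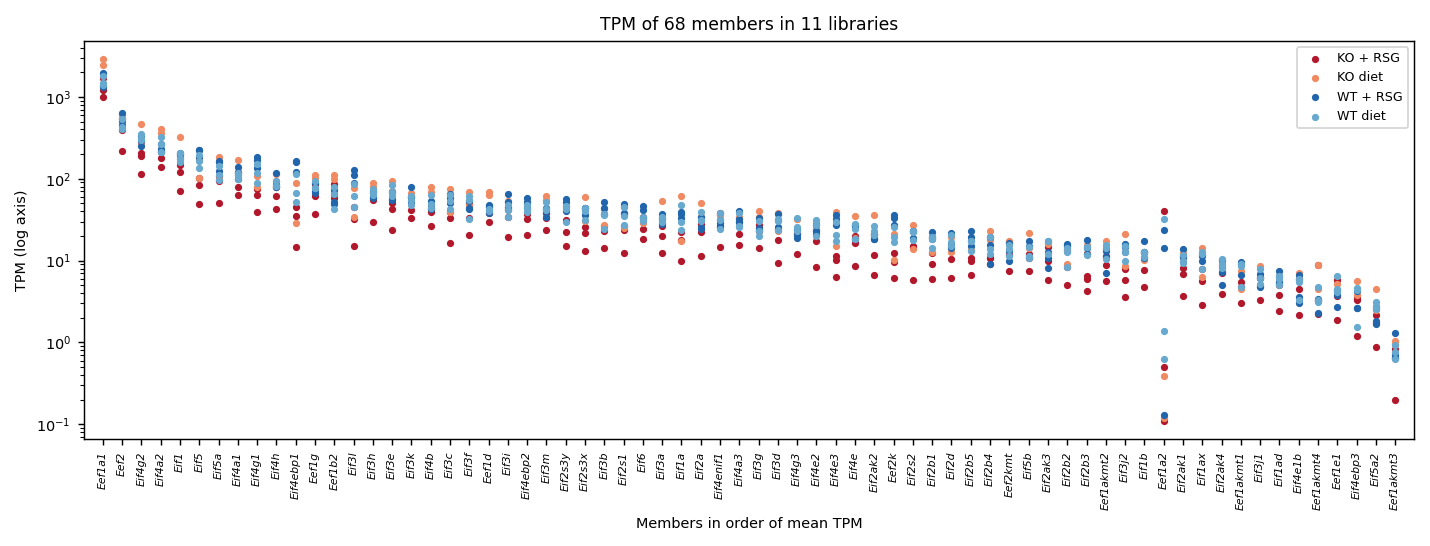
TPM (log axis) of the 68 genes in the 11 libraries, ordered by mean TPM, with 1 point per library coloured by group. Eef1a1 and Eef2 lead, and Eef1a2 is split between 4 libraries at 14.4 TPM or more and 7 libraries at 1.40 TPM or less.

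In the comparison of KO with WT averaged over treatments, which is free of the title conflict, 3 genes rose and 4 fell. The genes that rose were subunits of the eEF1B exchange factor (Eef1b2 and Eef1d) and the RNA-binding eIF3 subunit Eif3g. Those that fell were the cap-complex scaffold Eif4g1, the 4E-binding protein Eif4ebp1, the eEF2 kinase Eef2k and the eIF3 subunit Eif3l. The 7 called genes are 10.3% of the 68, against 12.8% of all 26960 genes tested with edgeR's quasi-likelihood test and Benjamini-Hochberg adjustment over all genes (threshold 0.05), of which 4.57% rose and 8.20% fell, and against 17.1% of the protein-coding genes tested. The share called was thus no higher than the background. The median log2 fold change was -0.05 over the 68 genes and 0.05 over all genes. In CPM, 5 of the 68 genes (7.35%) did not overlap between the 5 KO and the 6 WT libraries, all of them higher in KO, against 5.51% of all genes in either direction and 1.77% that were higher in KO.

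Eef1b2 (ENSMUSG00000025967.16, GRCm38 chr1:63176825-63180486, plus strand), which recharges eEF1A with GTP, measured 91.3, 52.6 and 60.4 CPM in KO with rosiglitazone and 50.9 and 63.7 CPM in KO on diet, against 40.8, 38.7 and 39.1 CPM in WT with rosiglitazone and 30.2, 41.0 and 40.1 CPM in WT on diet. Every KO library lay above every WT library. The log2 fold change was 0.71 ± 0.16 (SE, adjusted p = 0.0203), a fold of 1.63. Eef1d, another guanine-exchange subunit, measured 49.6, 38.5 and 38.7 CPM in KO with rosiglitazone and 34.6 and 41.2 CPM in KO on diet, against 30.5, 34.4 and 33.0 CPM in WT with rosiglitazone and 29.5, 27.7 and 29.5 CPM in WT on diet. The genotypes again did not overlap, although the lowest KO library stood just above the highest WT library, and the log2 fold change was 0.38 ± 0.11 (SE, adjusted p = 0.0456). This separation holds in CPM and not in TPM, where Eef1b2 spanned 59.0 to 112 TPM in KO libraries against 42.9 to 79.8 TPM in WT libraries and Eef1d 29.3 to 69.4 TPM in KO libraries against 37.9 to 47.7 TPM in WT libraries. On log2(TPM + 1) with limma-trend the averaged log2 fold changes were 0.53 for Eef1b2, 0.22 for Eef1d and 0.11 for Eif3g, and none of the 68 genes was called higher. Eef1b2 overlaps Ndufs1 on the opposite strand and Eef1d overlaps Naprt on the same strand, and strand is not given for these libraries.

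Other abundant elongation genes lay higher in KO without passing the threshold. Eef1g, which anchors the exchange complex, measured 101 to 117 CPM in KO libraries against 78.6 to 96.1 CPM in WT libraries. Eef1a1 measured 2372 to 3227 CPM in KO libraries against 1903 to 2261 CPM in WT libraries, with a log2 fold change of 0.40 ± 0.18 (SE, adjusted p = 0.176). Neither gene overlapped between genotypes in CPM, but both did in TPM, where Eef1a1 spanned 1004 to 2918 TPM in KO libraries against 1305 to 1962 TPM in WT libraries. Eif4b, the cofactor of the eIF4A helicase and a target of S6 kinase, likewise did not overlap in CPM, at 192 to 232 CPM in KO libraries against 167 to 185 CPM in WT libraries (log2 fold change 0.32 ± 0.11, SE, adjusted p = 0.0841). Eef2 measured 1327 to 1637 CPM in KO libraries against 1109 to 1606 CPM in WT libraries and overlapped (log2 fold change 0.09 ± 0.16, SE, adjusted p = 0.736).

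Eif4g1 (ENSMUSG00000045983.16, chr16:20668313-20692884, plus strand), the scaffold that joins eIF4E, eIF4A and eIF3, measured 255, 314 and 279 CPM in KO with rosiglitazone and 294 and 192 CPM in KO on diet, against 586, 745 and 628 CPM in WT with rosiglitazone and 645, 346 and 277 CPM in WT on diet. The genotypes overlapped through 1 library, WT on diet replicate 3, which lay inside the KO range. Its log2 fold change was -1.003 ± 0.244 (SE, adjusted p = 0.0261). Eef2k, the calcium-dependent kinase that inhibits eEF2, had a log2 fold change of -0.86 ± 0.21 (SE, adjusted p = 0.0257). Eif4ebp1 stood at -1.01 ± 0.26 (SE, adjusted p = 0.0306) and Eif3l at -0.89 ± 0.25 (SE, adjusted p = 0.0429). Eif3g had a log2 fold change of 0.33 ± 0.09 (SE, adjusted p = 0.0454), and Eef1akmt4, which methylates eEF1A, had 0.87 ± 0.25 (SE, adjusted p = 0.05004), just above the threshold.

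With rosiglitazone, where 3 KO libraries face 3 WT libraries, 9 of the 68 genes fell and 1 rose. That is 14.7% of the 68, against 15.0% of all genes, of which 9.50% fell and 5.47% rose, and 19.8% of protein-coding genes. The median log2 fold change was -0.15 over the 68 genes and 0.05 over all genes, and 42 of the 68 fold changes were negative. In CPM 27 genes (39.7%) lay lower in every KO library than in any WT library and 11 (16.2%) lay higher, against 24.7% and 23.5% of all genes.

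**Figure D2:**
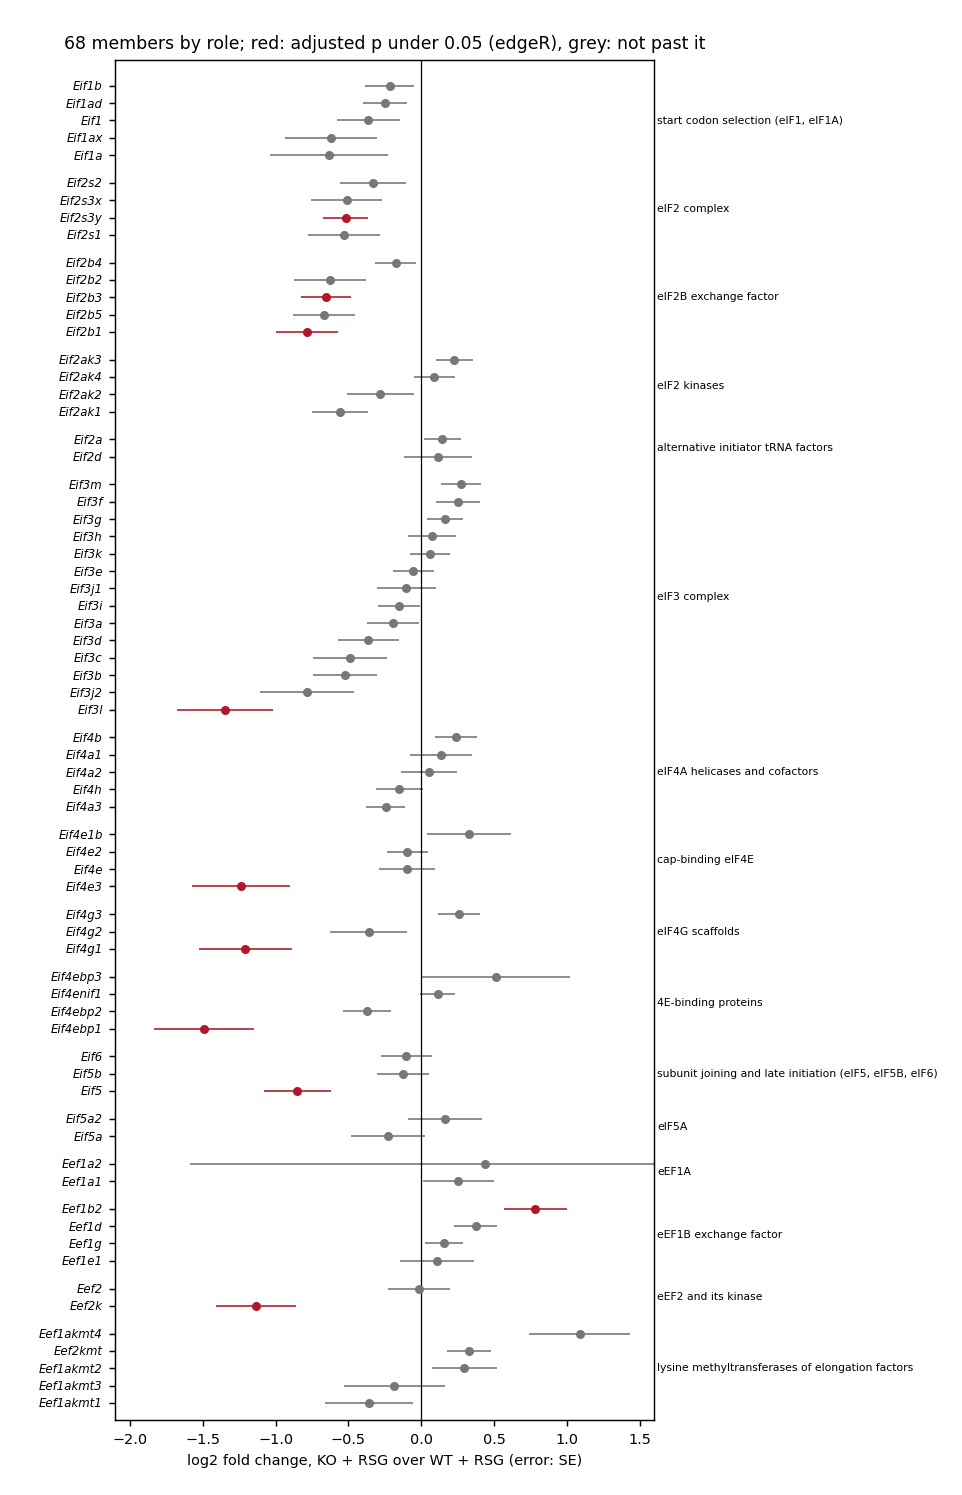
Log2 fold change of KO over WT, both with rosiglitazone, for the 68 genes grouped by role, with the standard error as a bar, in red where the adjusted p is under 0.05. The 9 genes that fell are spread over 8 roles, Eef1b2 is the only one that rose, and the bar of Eef1a2, whose SE is 2.02, runs past the right edge.

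On the cap side, the gene with the smallest p was Eif4ebp1, the best known brake on eIF4E and a direct mTORC1 substrate. It measured 41.5, 55.3 and 59.2 CPM in KO with rosiglitazone, against 129, 171 and 139 CPM in WT with rosiglitazone. No value overlapped, and the log2 fold change was -1.49 ± 0.34 (SE, adjusted p = 0.0190), a fold of 0.356. In KO on diet it measured 74.4 and 35.6 CPM, against 118, 65.9 and 54.7 CPM in WT on diet, and there the groups overlapped (log2 fold change -0.54 ± 0.38, SE, adjusted p = 0.697). Eif4ebp2, the second 4E-binding protein, measured 222, 233 and 189.6 CPM in KO with rosiglitazone against 254, 300.2 and 281 CPM in WT with rosiglitazone (log2 fold change -0.37 ± 0.17, SE, adjusted p = 0.155). The rare Eif4ebp3 measured 4.99, 1.05 and 2.24 CPM in KO against 2.17, 1.74 and 1.90 CPM in WT, and the spread in KO covered all WT values.

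Their target showed no such difference. Eif4e, whose groups overlapped, measured 34.1, 37.3 and 34.2 CPM in KO with rosiglitazone, against 32.6, 40.8 and 39.7 CPM in WT with rosiglitazone, with a log2 fold change of -0.10 ± 0.19 (SE, adjusted p = 0.762). Eif4e3, a divergent cap-binding relative, measured 34.4, 35.3 and 29.4 CPM in KO against 73.4, 85.1 and 75.2 CPM in WT with rosiglitazone and fell by 1.24 ± 0.33 in log2 units (SE; adjusted p = 0.0350). In KO on diet its 2 libraries differed widely, at 73.8 and 30.9 CPM, against 72.9, 38.7 and 37.4 CPM in WT on diet. Eif4e3 shares its strand and part of its locus with the predicted gene Gm20696, and reads of both may be divided between them.

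Eif4g1 fell with rosiglitazone, by 1.21 ± 0.32 in log2 units (SE; adjusted p = 0.0332), while its relatives did not pass the threshold. Eif4g3 measured 91.4, 94.3 and 78.0 CPM in KO with rosiglitazone against 75.5, 69.8 and 74.8 CPM in WT with rosiglitazone. Eif4g2, which lacks the eIF4E site, measured 640.2, 691 and 578 CPM in KO against 758, 889.7 and 806 CPM in WT with rosiglitazone. Among the 5 genes for eIF4A helicases and their cofactors none was called, and Eif4a1 measured 194, 155 and 166 CPM in KO against 147, 168 and 154 CPM in WT with rosiglitazone (log2 fold change 0.13 ± 0.21, SE, adjusted p = 0.703).

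Ratios within a library, which cancel its scaling, show the same genes beside their partners. Eif4ebp1 TPM stood at 1.70, 2.10 and 2.27 times Eif4e TPM in KO with rosiglitazone and at 2.55 and 1.53 times in KO on diet, against 5.97, 6.34 and 6.64 times in WT with rosiglitazone and 4.03, 2.76 and 2.82 times in WT on diet. The 5 KO values all lay below the 6 WT values. For Eif4ebp2 the ratio to Eif4e was 1.48 to 2.5003 in KO libraries against 1.503 to 2.38 in WT libraries, almost the same range. Eif4g1 relative to Eif4g2 was 0.229 to 0.365 in KO libraries against 0.298 to 0.588 in WT libraries, with overlap. The kinase Eef2k amounted to 1.84 to 3.57% of Eef2 TPM in KO libraries against 3.55 to 7.30% in WT libraries, and the highest KO value just passed the lowest WT value. Within eIF3, Eif3l stood at 0.466 to 1.14 times Eif3k in KO libraries against 0.961 to 1.83 times in WT libraries. These ratios were formed after the values of the genes had been seen and carry no test.

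**Figure D3:**
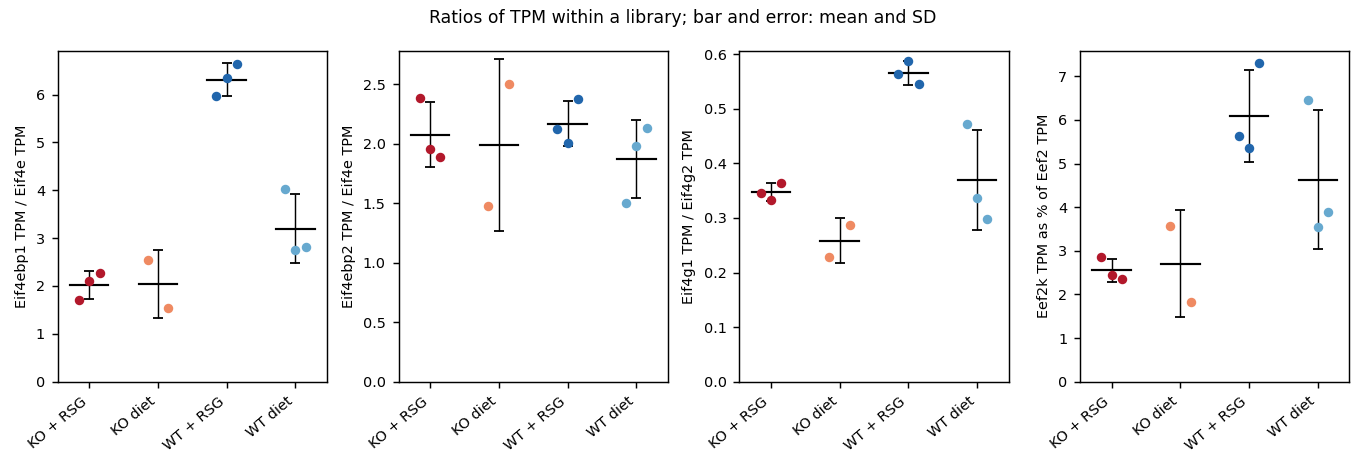
TPM ratios within each library (linear axes from 0) for Eif4ebp1 to Eif4e, Eif4ebp2 to Eif4e, Eif4g1 to Eif4g2 and Eef2k to Eef2 in percent, with 1 point per library and bars for mean and SD. The first ratio separates the 5 KO from the 6 WT libraries, while the second does not differ in range between them.

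The ternary complex side carries the initiator tRNA. eIF2 brings it to the ribosome, eIF2B reloads eIF2 with GTP, and the 4 eIF2 kinases block that step under stress. All 5 eIF2B genes had negative log2 fold changes in KO against WT with rosiglitazone, with a median of -0.66, and 2 of them fell. Eif2b1 measured 20.6, 21.2 and 21.1 CPM in KO against 32.9, 38.5 and 37.0 CPM in WT with rosiglitazone, without overlap (log2 fold change -0.78 ± 0.21, SE, adjusted p = 0.0356). Eif2b3 measured 14.5, 14.5 and 12.3 CPM in KO against 22.6, 21.6 and 20.9 CPM in WT with rosiglitazone, again without overlap (log2 fold change -0.66 ± 0.17, SE, adjusted p = 0.0298). The catalytic subunit Eif2b5 measured 32.7, 43.5 and 35.5 CPM in KO against 59.2, 64.5 and 53.5 CPM in WT with rosiglitazone and missed the threshold (log2 fold change -0.67 ± 0.21, SE, adjusted p = 0.0599).

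Of the 4 eIF2 genes, Eif2s3y, the Y-linked copy of the gamma subunit, fell. It measured 52.4, 49.9 and 49.6 CPM in KO against 68.9, 79.4 and 69.4 CPM in WT with rosiglitazone (log2 fold change -0.52 ± 0.16, SE, adjusted p = 0.0499), and its values on diet overlapped, at 53.1 and 67.5 CPM in KO against 45.7, 58.9 and 59.9 CPM in WT. The X-linked copy Eif2s3x measured 100.5, 99.6 and 98.6 CPM in KO against 126, 158 and 142 CPM in WT with rosiglitazone and was not called. The copies are close in sequence, so reads may be shared between them. Eif2s1, the alpha subunit that the kinases phosphorylate, had a log2 fold change of -0.53 ± 0.25 (SE, adjusted p = 0.171).

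None of the eIF2 kinases was called. Eif2ak1, the haem-regulated kinase, measured 29.2, 35.6 and 28.1 CPM in KO against 40.2, 47.6 and 48.7 CPM in WT with rosiglitazone (log2 fold change -0.56 ± 0.19, SE, adjusted p = 0.0795). Eif2ak2 (PKR, activated by double-stranded RNA) had a log2 fold change of -0.28 ± 0.23, Eif2ak3 (PERK, the endoplasmic reticulum sensor) of 0.23 ± 0.13 and Eif2ak4 (GCN2, the amino acid sensor) of 0.09 ± 0.14 (SE). Across all 11 libraries Eif2ak4 kept between 27.1 and 36.5 CPM.

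The eIF3 complex was the largest role, with 14 genes, of which Eif3l fell and none rose with rosiglitazone. Eif3l measured 62.3, 81.1 and 86.9 CPM in KO with rosiglitazone, against 190.0, 212 and 184 CPM in WT with rosiglitazone. Every WT library lay far above every KO library (log2 fold change -1.35 ± 0.33, SE, adjusted p = 0.0241). In KO on diet Eif3l measured 104 and 51.9 CPM, against 157, 84.7 and 73.4 CPM in WT on diet. The other 13 eIF3 genes lay between log2 fold changes of -0.78, for Eif3j2, and 0.27, for Eif3m. Eif3k, the usual partner of Eif3l at the edge of the complex, measured 50.2, 40.4 and 43.4 CPM in KO against 44.7, 42.6 and 41.2 CPM in WT with rosiglitazone. Eif3a, the largest subunit, measured 145, 146 and 145 CPM in KO against 157, 177 and 165 CPM in WT with rosiglitazone, without overlap but with a log2 fold change of only -0.19 ± 0.18 (SE, adjusted p = 0.493).

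Late in initiation eIF5 triggers GTP hydrolysis on eIF2, eIF5B joins the subunits and eIF6 keeps the free large subunit apart. Eif5 measured 195, 192 and 175 CPM in KO with rosiglitazone, against 295, 372 and 345 CPM in WT with rosiglitazone. The groups did not overlap and Eif5 fell by 0.85 ± 0.23 in log2 units (SE; adjusted p = 0.0363). Eif6 measured 39.6, 33.7 and 33.0 CPM in KO against 37.6, 39.2 and 37.2 CPM in WT with rosiglitazone and overlapped. Eif5a, the hypusine-bearing factor that helps the ribosome past difficult peptide bonds, measured 103, 114 and 109 CPM in KO against 114, 145 and 123 CPM in WT with rosiglitazone (log2 fold change -0.23 ± 0.25, SE, adjusted p = 0.565). The 5 genes grouped by name with eIF1 and eIF1A, Eif1ad among them, all had negative log2 fold changes, with a median of -0.37, and none was called.

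In elongation 1 gene fell, the kinase Eef2k, and 1 rose of the 4 genes grouped by name under the exchange factor, Eef1e1 among them. Eef2k measured 36.4, 44.7 and 40.2 CPM in KO with rosiglitazone, against 87.0, 83.8 and 95.1 CPM in WT with rosiglitazone, and fell by 1.13 ± 0.27 in log2 units (SE; adjusted p = 0.0235). Its target Eef2 measured 1396, 1591 and 1637 CPM in KO, against 1543, 1606 and 1520 CPM in WT with rosiglitazone, and the log2 fold change was -0.01 ± 0.21 (SE, adjusted p = 0.973). Eef1b2 rose, by a log2 fold change of 0.78 ± 0.22 (SE, adjusted p = 0.0381), and KO with rosiglitazone replicate 1 was its highest library. That library stood apart in its RNA, with 12.1% of reads on ribosomal and 7S RNA, against 5.68 to 8.93% in the other 10 libraries, and 59.0% on protein-coding genes. The other KO libraries with rosiglitazone had 71.5% and 71.0% of reads on protein-coding genes, against 77.6 to 78.1% in WT with rosiglitazone. A fit on protein-coding genes only called 4 of the 68 genes higher and 8 lower with rosiglitazone, where 23.6% of its genes were called. In that fit the median log2 fold change of the 68 was -0.008. The part of the difference in reads in the results was not tested. Eef1akmt4 measured 5.42, 4.89 and 9.65 CPM in KO against 2.91, 3.55 and 2.92 CPM in WT with rosiglitazone, without overlap (log2 fold change 1.09 ± 0.34, SE, adjusted p = 0.0600). It overlaps Alg3 on the opposite strand and Gm49333 on the same strand.

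**Figure D4:**
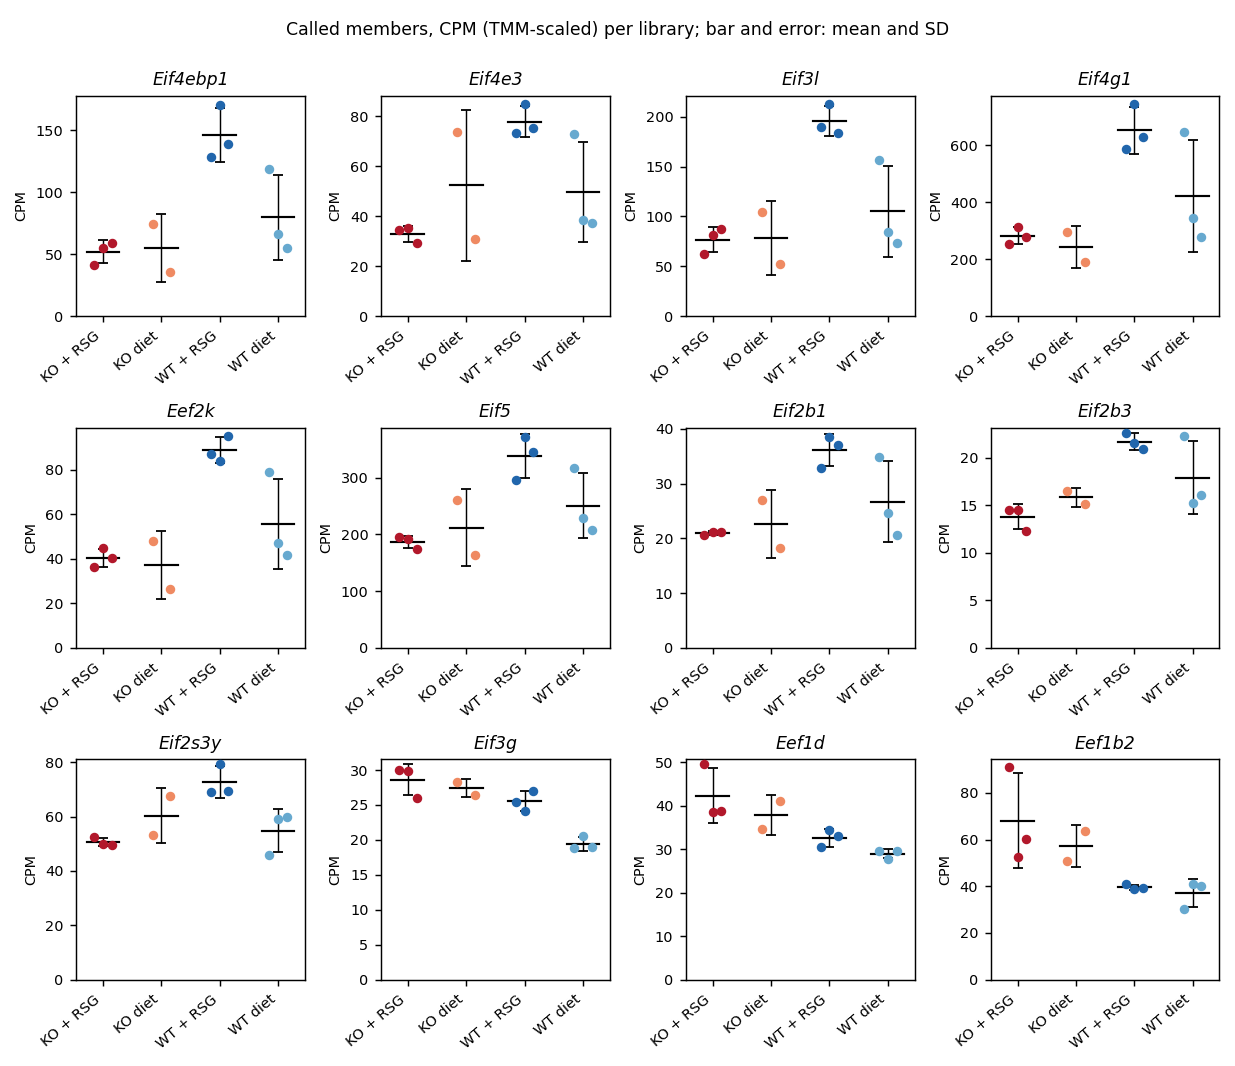
CPM per library (linear axes from 0) of the 12 genes called in a comparison of KO with WT, with bars for the group mean and SD. For Eif4ebp1, Eif3l, Eif4g1 and Eef2k the 3 WT libraries with rosiglitazone stand above all 3 KO libraries with rosiglitazone, and 1 of the 3 WT libraries on diet stands near them.

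These counts are sensitive to single libraries. For KO against WT with rosiglitazone, 0 of the 68 genes were called without KO with rosiglitazone replicate 1, without its replicate 3 or without WT with rosiglitazone replicate 2, and 1 gene was called without KO with rosiglitazone replicate 2 or without WT with rosiglitazone replicate 1 or 3. In the fits without a KO library with rosiglitazone, fewer of all genes were called as well. The share was 6.13% without replicate 1, 8.98% without replicate 2 and 5.60% without replicate 3, against 15.0% with all libraries. Over the 11 fits that leave out 1 library no called fold change turned round. With rosiglitazone Eif4ebp1 ran from -1.59 to -1.35, Eef2k from -1.17 to -1.06 and Eif4g1 from -1.28 to -1.10 on the log2 scale, while Eef1b2 ran more widely, from 0.51 to 1.01. Averaged over treatments the ranges were -1.33 to -0.80 for Eif4ebp1, -1.11 to -0.68 for Eef2k, -1.19 to -0.68 for Eif3l, -1.18 to -0.78 for Eif4g1 and 0.57 to 0.83 for Eef1b2, and Eif3g was called in none of the 11 fits. For the averaged comparison the count ran from 0, without WT with rosiglitazone replicate 2, to 11, without KO on diet replicate 1. It was 1 without KO with rosiglitazone replicate 1 or 3, KO on diet replicate 2 or WT with rosiglitazone replicate 3, 2 without WT with rosiglitazone replicate 1, and 4 without KO with rosiglitazone replicate 2. With WT grouped by the titles instead, 0 genes were called with rosiglitazone and 3 fell on diet.

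On the diet alone, KO (2 libraries) against WT (3 libraries) gave 0 called genes among the 68 with edgeR, against 0.137% of all genes. At an unadjusted p under 0.05 there were 5 genes, all with positive fold changes, against 10.5% of all genes in either direction and 4.57% higher. DESeq2 called 3, all higher (2.73% of all genes), and limma-voom called 0 (0.0111%). The 5 smallest p-values belonged to Eif3g, Eef1b2, Eef1g, Eif4b and Eef1d. Eif3g measured 28.3 and 26.5 CPM in KO on diet against 18.8, 20.6 and 18.9 CPM in WT on diet, without overlap (log2 fold change 0.50 ± 0.14, SE, adjusted p = 0.226). For Eef1b2 the log2 fold change was 0.63 ± 0.24 and for Eif4b 0.40 ± 0.16 (SE), with adjusted p-values of 0.383 and 0.416.

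Rosiglitazone in WT tissue gave 0 called genes among the 68 with edgeR, against 2.14% of all genes. At an unadjusted p under 0.05 there were 13 genes, all with positive fold changes, against 17.4% of all genes in either direction and 9.93% higher. DESeq2 called 5 (7.34% of all genes) and limma-voom with quality weights called 29 (27.4%), all higher. Of the 68 fold changes 56 were positive, with a median log2 fold change of 0.24 against -0.05 for all genes. In CPM 20 genes (29.4%) lay higher in every WT library with rosiglitazone than in any on diet, against 13.4% of all genes, and 1 lay lower, against 10.4%. The smallest p-values were those of Eif3i, Eif4a3, Eif3g, Eif4ebp2 and Eif2b4. Eif3i, a WD-repeat subunit of eIF3, measured 55.1, 57.6 and 50.9 CPM in WT with rosiglitazone against 44.9, 38.9 and 32.7 CPM in WT on diet (log2 fold change 0.49 ± 0.14, SE, adjusted p = 0.121). Eif4a3, a helicase of the exon junction complex, measured 38.3, 37.9 and 38.9 CPM in WT with rosiglitazone against 32.0, 27.3 and 25.4 CPM in WT on diet (log2 fold change 0.44 ± 0.13, SE, adjusted p = 0.123).

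The genes that fell in KO had positive fold changes here, at 0.87 ± 0.34 for Eif4ebp1, 0.90 ± 0.33 for Eif3l and 0.67 ± 0.27 for Eef2k (log2, SE), none past the threshold. The WT libraries with rosiglitazone enter both this comparison and that of KO with WT under rosiglitazone, so the values are not independent. Leaving out WT on diet replicate 1, which for Eif4ebp1 and Eif4g1 lay closest to the rosiglitazone libraries, gave 12 called genes in place of 0. The share of all genes called in that fit is not given here, so this count is not set against a background. Under the titles the direction of every one of these fold changes is turned round.

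Rosiglitazone in KO tissue also gave 0 called genes with edgeR, against 0.0148% of all genes, with 1 gene at an unadjusted p under 0.05 (8.36% of all genes). DESeq2 (1.31% of all genes) and limma-voom (0.00%) called 0 as well. The median log2 fold change was -0.00 over the 68 genes, with 34 positive and 34 negative. Eif3k came closest, at 50.2, 40.4 and 43.4 CPM in KO with rosiglitazone against 34.3 and 35.7 CPM in KO on diet (log2 fold change 0.35 ± 0.16, SE, adjusted p = 0.597). Eif1b and Eif6 had log2 fold changes of 0.40 ± 0.19 and 0.36 ± 0.20 (SE), and Eif4e3 of -0.66 ± 0.36. The difference between the drug's effects in KO and in WT (interaction) was called for 0 genes, against 0.104% of all genes, with 2 genes at an unadjusted p under 0.05 (10.5% of all genes). DESeq2 (1.91% of all genes) and limma-voom (0.152%) called 0. Those 2 were Eif2s3y, at a log2 difference of -0.66 ± 0.23, and Eif4e3, at -1.31 ± 0.49 (SE, adjusted p = 0.371 and 0.396). For Eif4ebp1 it was -0.95 ± 0.50 and for Eif2ak3 0.40 ± 0.19 (SE), neither past the threshold.

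Eef1a2 stood apart from all others. It encodes the eEF1A isoform of skeletal muscle, heart and neurons. It measured 0.110, 40.4 and 0.4998 TPM in KO with rosiglitazone and 0.388 and 0.118 TPM in KO on diet, against 0.129, 14.4 and 23.6 TPM in WT with rosiglitazone and 0.626, 32.6 and 1.40 TPM in WT on diet. The 4 high libraries are the 4 in which skeletal muscle markers exceeded 0.5% of reads, and in the other 7 it did not exceed 1.40 TPM. No comparison called it, and its log2 fold change of 6.62 ± 3.29 for rosiglitazone in KO (SE, adjusted p = 0.657) rests on KO with rosiglitazone replicate 2.

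The makeup of the tissue differed between the groups in the markers of other cell types as well. Summed over 15 mature adipocyte markers, KO with rosiglitazone had 5041, 5851 and 5571 CPM and KO on diet 7529 and 2439 CPM, against 31544, 36928 and 33912 CPM in WT with rosiglitazone and 36942, 13831 and 11154 CPM in WT on diet. With rosiglitazone 13 of these 15 markers fell in KO against WT, and 10 of 13 macrophage markers rose, to summed levels of 2674 to 3312 CPM in KO against 668 to 817 CPM in WT. Summed B-cell markers ranged from 619 to 749 CPM in KO with rosiglitazone and were 27.0 and 1021 CPM in KO on diet, against 21.6 to 344 CPM in WT with rosiglitazone and 32.3 to 921 CPM in WT on diet. Adipocyte markers and Eif4ebp1 have the same highest 4 libraries, namely the 3 WT libraries with rosiglitazone and WT on diet replicate 1. When the summed adipocyte markers entered the model as a covariate, the log2 fold change of Eif4ebp1 for KO against WT with rosiglitazone was 0.25 in place of -1.49, and those of Eef2k, Eif3l, Eif4e3, Eif4g1, Eif2b1 and Eif5 also turned positive. Eif2b3 was at -0.13 in place of -0.66 and was no longer called, and Eif2s3y was called at -1.09. The gene that rose, Eef1b2, was at 0.087 in place of 0.78 with rosiglitazone and at 0.089 in place of 0.71 averaged over treatments, and Eef1d was at 0.23 in place of 0.38 averaged over treatments, none of them called. With this covariate 4 of the 68 genes were called higher and 1 lower with rosiglitazone, against 6.97% of all genes. Averaged over treatments 13 were called higher and 2 lower (11.3% of all genes), and on diet 19 higher and 1 lower (13.3%). The markers follow genotype so closely that their part and that of the deletion cannot be told apart.

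**Figure D5:**
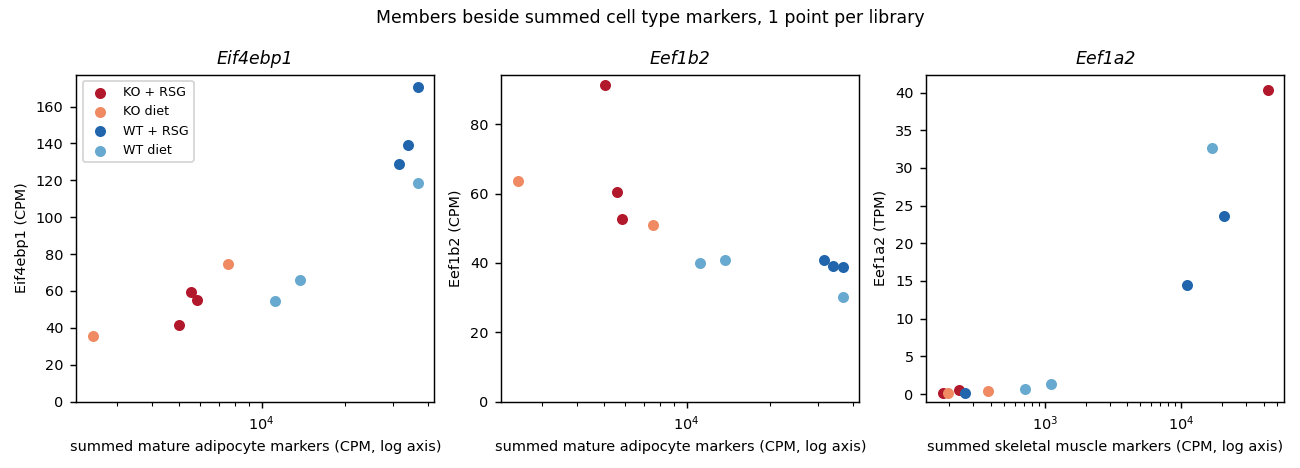
Eif4ebp1 and Eef1b2 (CPM) against summed mature adipocyte markers (CPM, log axis) and Eef1a2 (TPM) against summed skeletal muscle markers (CPM, log axis), 1 point per library. Eif4ebp1 is highest in the 4 libraries richest in adipocyte markers, Eef1b2 is highest among KO libraries, and Eef1a2 is at 14.4 TPM or more only in the 4 libraries richest in muscle markers.

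Without the 4 libraries rich in muscle markers, 7 remained, and WT with rosiglitazone kept only replicate 1, so only fold changes are given. Against that library KO with rosiglitazone stood at -1.27 for Eif4ebp1, -1.06 for Eif4g1, -1.11 for Eef2k, -1.27 for Eif3l and -1.13 for Eif4e3 (log2). Eif2b1 was at -0.58, Eif2b3 at -0.68, Eif5 at -0.60, Eif2s3y at -0.36 and Eef1b2 at 0.97. The fold changes for KO against WT averaged over treatments were close to those with all libraries: -0.95 for Eif4ebp1, -0.98 for Eif4g1, -0.89 for Eef2k, -0.90 for Eif3l, 0.85 for Eef1b2, 0.50 for Eef1d and 0.39 for Eif3g on the log2 scale.

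Around the factors themselves, 50 genes of 6 lists from the same pathway were counted: regulators upstream, poly(A)-binding proteins, stress partners of eIF2, helicases, termination factors and modifying enzymes. For KO against WT averaged over treatments, 1 rose and 4 fell among 15 genes of mTORC1 and MNK signalling to initiation, 1 fell among 7 poly(A)-binding proteins and partners, 1 fell among 5 termination genes, where 12.8% of all genes and 17.1% of protein-coding genes were called, and none was called among 7 stress partners of eIF2, 7 helicase and reinitiation genes and 9 hypusine and diphthamide enzymes. Deptor, an inhibitor of mTOR, measured 154, 206 and 176 CPM in KO with rosiglitazone and 439.9 and 137 CPM in KO on diet, against 1087, 1373 and 1089 CPM in WT with rosiglitazone and 500.3, 235 and 164 CPM in WT on diet. It fell by 1.39 ± 0.37 in log2 units (SE; adjusted p = 0.0350), and by 2.73 with rosiglitazone. Mknk2, a kinase of eIF4E, fell by 1.06 ± 0.17 (SE, adjusted p = 0.00454). Akt1s1 (PRAS40, an mTORC1 inhibitor), Rptor, the ribosome rescue factor Pelo and Paip2b, an inhibitor of poly(A)-binding protein, fell as well. Rps6, the ribosomal target of S6 kinase, measured 156, 57.2 and 53.8 CPM in KO with rosiglitazone and 59.8 and 86.5 CPM in KO on diet, against 34.2, 38.0 and 37.2 CPM in WT with rosiglitazone and 30.3, 49.2 and 44.5 CPM in WT on diet. Every KO library was above every WT library (log2 fold change 1.05 ± 0.28, SE, adjusted p = 0.0384).

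Gene sums hide which transcripts carry them. Of 154 transcripts that held at least 10% of their gene's TPM on average, 5 had shares that did not overlap between the 5 KO and the 6 WT libraries (3.25%), against 1.54% of such transcripts over all protein-coding genes tested. They belong to Eif4a2 (2 transcripts), Eif4g1, Eif4g3 and Eif5b, and were singled out after their values were seen. Eif4a2-203 held 8.55 to 21.3% of Eif4a2 TPM in KO libraries against 25.4 to 46.9% in WT libraries, while the gene as a whole was at 305 to 459 CPM in KO libraries against 301 to 374 CPM in WT libraries. Eef1b2-205, annotated as a target of nonsense-mediated decay, held 58.1 to 67.9% of Eef1b2 TPM in KO libraries against 56.7 to 73.0% in WT libraries. Eif4ebp1-202, annotated as a processed transcript, held 38.2 to 66.2% of Eif4ebp1 TPM in KO libraries against 50.6 to 77.1% in WT libraries.

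Promoter windows of RefSeq (GRCm38.p6, 250 bases before to 50 after a gene's start) were given for 52 of the 68 genes. CACGTG, the E-box bound by MYC, USF and TFE factors and the same on both strands, occurred in 13 of the 52 (25%), against 8.09% of the 27025 genes with a window and 10.4% of the tested protein-coding genes among them. CCGGAAGT on either strand, the core of ETS factor sites, occurred in 9 of the 52 (17.3%), against 4.31% and 7.35%. TGATGNAA on either strand, letters of the element read by ATF4 with C/EBP partners, occurred in 2 (3.85%), against 4.51% and 3.34%. The DR1 element, a direct repeat of the kind PPARG binds with RXR, occurred in 0 of the 52 and in 13 of the 27025. A match describes letters in the window only. The stretches of 100 bases before the start are shown for Eif4g1, Eef2k and Eif3l, which fell in KO, and for Eef2, which was not called, so that windows of called genes can be read beside one of a gene that was not called. Capitals mark CACGTG, or in Eif3l the reverse strand reading ACTTCCGG of CCGGAAGT.
Eif4g1, chr16:20672627-20672726, plus strand: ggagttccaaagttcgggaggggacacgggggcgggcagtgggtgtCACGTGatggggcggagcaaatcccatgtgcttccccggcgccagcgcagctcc
Eef2k, chr7:120842731-120842830, plus strand: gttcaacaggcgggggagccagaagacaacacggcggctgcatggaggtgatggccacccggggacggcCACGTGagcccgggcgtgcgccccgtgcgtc
Eif3l, chr15:79075123-79075222, plus strand: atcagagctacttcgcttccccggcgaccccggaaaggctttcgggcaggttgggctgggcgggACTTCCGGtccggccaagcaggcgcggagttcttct
Eef2, chr10:81176531-81176630, plus strand: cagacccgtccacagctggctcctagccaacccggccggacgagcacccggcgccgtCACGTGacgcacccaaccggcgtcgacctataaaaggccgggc

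The RefSeq start follows each printed stretch. Counted from it, the E-box begins 54 bases before the start in Eif4g1, 31 in Eef2k and 43 in Eef2. The ETS letters begin 36 bases before it in Eif3l. Eif4g1 has a second CACGTG 15 bases after that start, outside the printed stretch. The annotation used for the gene sums starts Eif4g1 upstream of its stretch, at 20668313, and Eif3l inside its stretch, at 79075179. By that annotation the ETS letters lie inside Eif3l. Among the 13 genes with the E-box, Eif4g1 and Eef2k fell in KO against WT averaged over treatments. Eef1akmt4, Eif1b, Eif3a, Eif3f, Eif3k, Eif4a1, Eif4e, Eif4h, Eif5a, Eif5a2 and Eef2 were not called. In that comparison 12.8% of all genes and 17.1% of protein-coding genes were called, and a link between the letters and the calls was not tested. No RefSeq window was given for Eif4ebp1, Eef1d, Eif2b3 or Eif4e3.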

How the data were processed

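RNA of 11 mouse adipose libraries was sequenced after Trizol extraction and Nextera XT preparation, per the labels' protocols. Per the file headers, the deposited files hold estimated counts (reads assigned by Salmon, not normalized) and TPM (divided by effective transcript length) for each transcript. The submitters' processing notes name Salmon, edgeR and mm10 and give no versions. Transcripts (132288 listed, 99.7% matched by identifier) were summed to genes with a GENCODE annotation of GRCm38, and estimated counts were rounded. The 396 unmatched transcripts held 0.0985 to 0.144% of reads and were left out. Groups followed the treatment and genotype characteristics. After TMM scaling and edgeR's expression filter, 1 model of the 4 groups was fitted to 26960 genes with edgeR 4.0.16 (R 4.3.3), and 6 contrasts were tested with the quasi-likelihood test and Benjamini-Hochberg adjustment over all genes. Alternatives used DESeq2 1.42.0 and limma 3.58.1. Named genes were 20 fixed genes of the main roles, every called gene, the 5 with the smallest p-values in each comparison and the 5 with the highest and the lowest mean TPM, and other genes were named after their values were seen. The members and lists were chosen with earlier results of these data known. The model was also run on simulated data, with genes changed in KO only and the same spread for every gene. That setting lacks the tissue differences seen here and does not show how the model performs with them. Reads assigned by estimation can be divided between near-identical copies, and no strand is named.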

Additional observations from a re-analysis of the deposited data

How the results depend on the processing

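Groups held 2 to 3 libraries. Counts of called genes among the 68 moved as follows, and percentages give the share of all genes tested that the same setting called. Ranges over fits that leave out 1 library carry no such share and are not set against a background. For rosiglitazone in WT (0) DESeq2 gave 5 (7.34%), limma-voom 29 (27.4%) and an adipocyte marker covariate 1 (6.73%). A B-cell marker covariate, chosen after seeing the data, gave 4 (8.53%), and leaving out 1 library gave 0 to 12. For rosiglitazone in KO (0) the adipocyte covariate gave 3 (4.62%), all lower. For KO against WT on diet (0) DESeq2 gave 3 (2.73%), WT grouped by title 3 (10.7%) and the B-cell covariate 2 (5.72%). There the adipocyte covariate gave 20 (13.3%), 19 higher and 1 lower. For KO against WT with rosiglitazone (10) limma-voom gave 24 (34.4%), no expression filter 6 (8.13%) and only the groups compared 24 (35.8%). Titles gave 0 (2.31%), the muscle covariate 4 (10.5%) and the adipocyte covariate 5 (6.97%), 4 higher and 1 lower. Leaving out 1 library gave 0 to 15. For KO against WT averaged over treatments (7) DESeq2 gave 15 (19.2%) and limma-trend on log2(TPM + 1) 3 (7.05%). Protein-coding genes only gave 13 (21.1%), 9 higher and 4 lower, against 3 and 4. The muscle covariate gave 0 (6.99%), the adipocyte covariate 15 (11.3%) and the B-cell covariate 16 (21.5%). Dropping the muscle-rich libraries left 1 library in a group, so no count is given. Leaving out 1 library gave 0 to 11. The interaction (0) gave 2 (3.04%) with the adipocyte covariate, all lower. With protein-coding genes only, 4 genes were higher and 8 lower with rosiglitazone (23.6%). The cause of these shifts was not tested.

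Whether the replicate numbers pair the libraries could not be decided. Over 15 same-number pairs the correlation of deviations ran from -0.527 to 0.701, with 6 over 0.1. Over different-number pairs it ran from -0.701 to 0.527. Deviations within groups this small cancel out, so the correlations are not free of one another. For KO on diet, the values of its libraries mirror each other exactly. A fit with the replicate number as a block called 8 genes with rosiglitazone (12.8% of all genes) and 4 averaged over treatments (11.8%).

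Log2 fold changes turned round as follows. With limma-trend on log2(TPM + 1) Eif2b4 was -0.080 for rosiglitazone in WT, Eif1b -0.48, Eif3k -0.55 and Eif6 -0.31 for rosiglitazone in KO, and Eif2ak3 -0.23 for the interaction; that scaling moved the median of all genes to -0.60 for rosiglitazone in KO, -0.30 for KO against WT with rosiglitazone and -0.46 for the interaction. Grouped by title, rosiglitazone in WT gave -0.39 for Eif2b4, -0.39 for Eif3g, -0.49 for Eif3i, -0.44 for Eif4a3 and -0.46 for Eif4ebp2, and the interaction gave -0.056 for Eif2ak3, 0.15 for Eif2s3y, 0.87 for Eif3l and 0.79 for Eif4ebp1. For rosiglitazone in KO, leaving out 1 library moved Eif4e3 between -1.16 and 0.10, positive only without KO on diet replicate 1. With the adipocyte covariate, KO against WT with rosiglitazone gave 0.26 for Eef2k, 0.24 for Eif2b1, 0.33 for Eif3l, 0.51 for Eif4e3, 0.25 for Eif4ebp1, 0.29 for Eif4g1 and 0.14 for Eif5, and the averaged comparison 0.39 for Eef2k, 0.61 for Eif3l, 0.53 for Eif4ebp1 and 0.36 for Eif4g1.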
